A study of Oryza sativa with 2 samples.

Results

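Glycosyltransferase family 43 is a family of Golgi enzymes that works on xylan, and 8 of the 14709 rice genes in the list of OsbHLH002 peaks were described as members of it. They were chosen by their description alone ("glycosyltransferase family 43 protein"), whatever the strength of their peak. OsbHLH002 is a basic helix-loop-helix transcription factor, and the study asked where it sits on the genome in work on secondary cell wall formation. The plants carried the Osbhlh002-1 mutation and, on that background, the transgene gOsbHLH002-3FLAG, a genomic copy of the gene with a FLAG epitope tag. Chromatin precipitated with an anti-FLAG antibody (the IP, 1 library) was set against the input chromatin of plants with the same label (1 library). Both libraries thus share the mutation and the transgene, and plants without the tag were not analysed here. The sources used here do not state the tissue, the age of the plants or how they were grown. With 1 IP there was no replicate, so no test between conditions was possible, and every error below is counting error.

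Xylan is the main non-cellulosic polysaccharide of grass cell walls, in both primary and secondary walls. Its backbone of xylose is made in the Golgi by a synthase complex. In Arabidopsis the family 43 proteins IRX9 and IRX14 and the exostosin-type protein IRX10 act in making that backbone, and loss of these proteins gives irregular xylem. Grass genomes hold more family 43 genes than Arabidopsis. Other enzymes add side groups to the chain, or make the sugar nucleotides it is built from. The identifiers in the list are not paired with these gene names, so the members are given by identifier.

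The 8 genes lay on 6 chromosomes, with 2 each on chromosomes 1 and 4 and 1 each on chromosomes 3, 5, 6 and 10. Each had a different peak. A list of 10 rice family 43 identifiers written from general knowledge held the same 8 genes and 2 more, LOC_Os05g48600 and LOC_Os07g49370, which had no entry. The RefSeq gene table for rice (assembly ASM3414082v1) gives 9 genes a GT43 symbol or synonym, 1 of them on chromosome 7, where the list of peaks had no family 43 gene, and 1 on chromosome 4, where the list had 2. On chromosome 5 it gives 2, where the list had 1. None of its 39387 entries carries an identifier of the type used in the list, so genes were not matched one to one. A gene without an entry may still be bound, for example farther than 2000 bp from its start. The list joins genes only to peaks within that distance, and 9584 of the 22071 peak numbers were on no gene in it.

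Peaks at the family 43 genes were of ordinary to moderate strength. The fold enrichment is the authors' own value for each peak. It is taken here as the ratio of IP fragments to local background at the summit, with the same constant added to both. The fold is thus lower than the plain ratio of the counts printed below. It ran from 2.23 to 5.15 over the 8 genes, with a median of 3.79. The median over all 14709 genes was 3.13, with quartiles of 2.57 and 4.11. The fold was at or above that median in 6 of the 8 genes, against 50.8% of all genes. A fold of 4 or more was reached by 3 of the 8 genes, against 27.6% of all genes, and a deposited q of 0.05 or less by all 8, against 90.1% of all genes. Most of the list passed that q, so its count says little about the family. At a q of 0.01 or less 7 of the 8 genes were left, where 77.3% of all genes passed, and at 0.001 or less the same count of 7, where 61.9% passed.

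**Figure D1:**
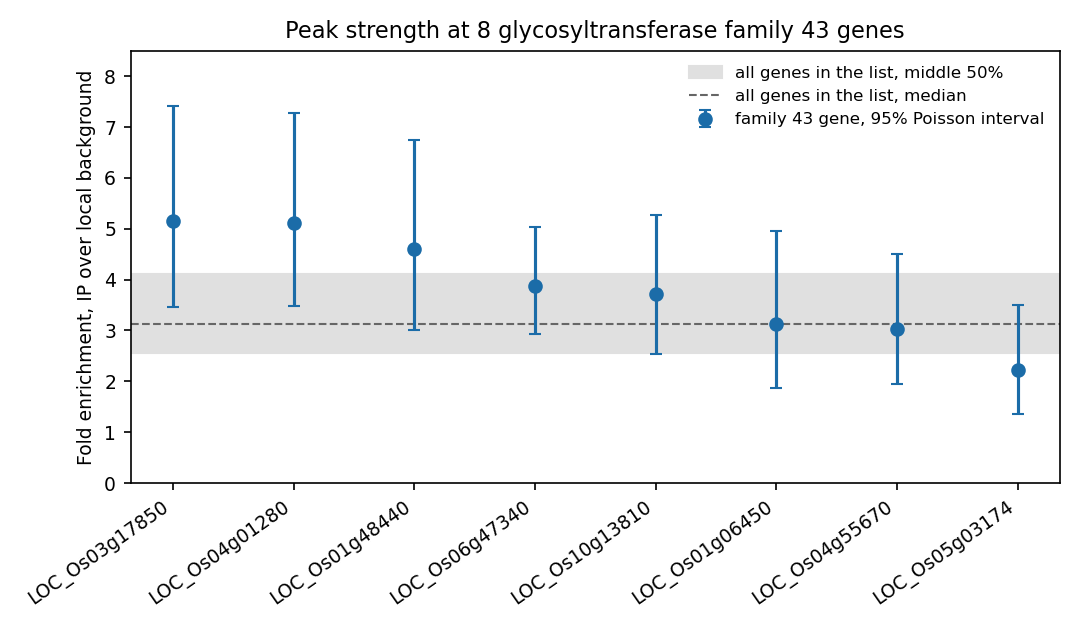
Fold enrichment of the IP over local background (y axis, linear) at the peak of each family 43 gene (x axis), in falling order. Points are the deposited folds and bars the 95% exact Poisson interval of the IP fragments at a fixed background. The folds fall from 5.15 at LOC_Os03g17850 to 2.23 at LOC_Os05g03174, and the bars of all pairs of genes overlap.

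The highest folds belonged to LOC_Os03g17850, LOC_Os04g01280 and LOC_Os01g48440. LOC_Os03g17850 (chromosome 3, 9946381 to 9952426, plus strand) had a fold of 5.15, from 27 IP fragments at the summit over a background of 4.44 (95% exact Poisson interval of the fold 3.45 to 7.41). LOC_Os04g01280 (chromosome 4, 215929 to 219439, plus strand) had a fold of 5.11 from 29 fragments over 4.87 (interval 3.48 to 7.27). LOC_Os01g48440 (chromosome 1, 27757763 to 27761733, minus strand) had a fold of 4.60 from 24 fragments over 4.44 (interval 3.01 to 6.75). The fold of LOC_Os03g17850 ranked 1576 of the 12487 peaks, that of LOC_Os04g01280 ranked 1647 and that of LOC_Os01g48440 ranked 2224. Their −log10 q values were 10.6, 11.2 and 8.34, in the same order. The intervals of LOC_Os03g17850 and LOC_Os04g01280 lay above the median fold of all genes, and those of the other 6 members covered it.

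LOC_Os06g47340 (chromosome 6, 28694851 to 28698503, plus strand) had the most IP fragments of the family but not the highest fold. Its summit held 54 fragments (95% exact Poisson interval 40.6 to 70.5), against 16 to 29 at the other members. By this count it ranked 263 of the 12485 peaks for which fragments could be recovered. Its background was also high, at 13.2 fragments, a value that equals 28 input fragments at an inferred weight of 0.472 for each. Only 18 of those 12485 peaks had a higher background. The fold was therefore 3.87 (interval 2.92 to 5.03), below those of the 3 genes above, while its −log10 q of 14.2 was the highest of the 8. Set over the genome-wide background of 4.44 in place of the local one, the fold would be 10.1. The part of the high background in its fold was not tested.

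Of the remaining 4 genes, LOC_Os10g13810 had a fold in the upper part of the list, with 32.7% of peaks at least as high, and the others lay close to or below its middle. LOC_Os10g13810 (chromosome 10, 7499315 to 7503453, minus strand) had a fold of 3.71 from 29 fragments over a background of 7.08 (interval 2.53 to 5.28). It had as many IP fragments as LOC_Os04g01280, and its lower fold followed from the higher background. That background equals 15 input fragments at the same inferred weight. LOC_Os01g06450 (chromosome 1, 3039298 to 3041232, plus strand) had a fold of 3.13 from 16 fragments over 4.44 (interval 1.87 to 4.96), the same as the median of the list. That pair of counts was shared by 224 peaks. LOC_Os04g55670 (chromosome 4, 33137071 to 33140263, minus strand) had a fold of 3.02 from 22 fragments over 6.61 (interval 1.94 to 4.51).

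LOC_Os05g03174 (chromosome 5, 1278891 to 1285604, plus strand) had the weakest peak. Its fold was 2.23 from 17 fragments over a background of 7.08 (interval 1.35 to 3.49), and 88.7% of all peaks had a fold at least as high. Its q was 0.0242, so it passed 0.05 but not 0.01, and it was the only member to fail at 0.01. Genes next to each other in the order of fold did not differ beyond their counting intervals. The intervals overlapped in all 28 pairs of members, although that of LOC_Os05g03174, which ended at 3.49, only just met those of LOC_Os04g01280, from 3.48, and LOC_Os03g17850, from 3.45. An overlap of intervals is not a test, so a difference between the ends of the order is neither shown nor set aside at this depth.

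**Figure D2:**
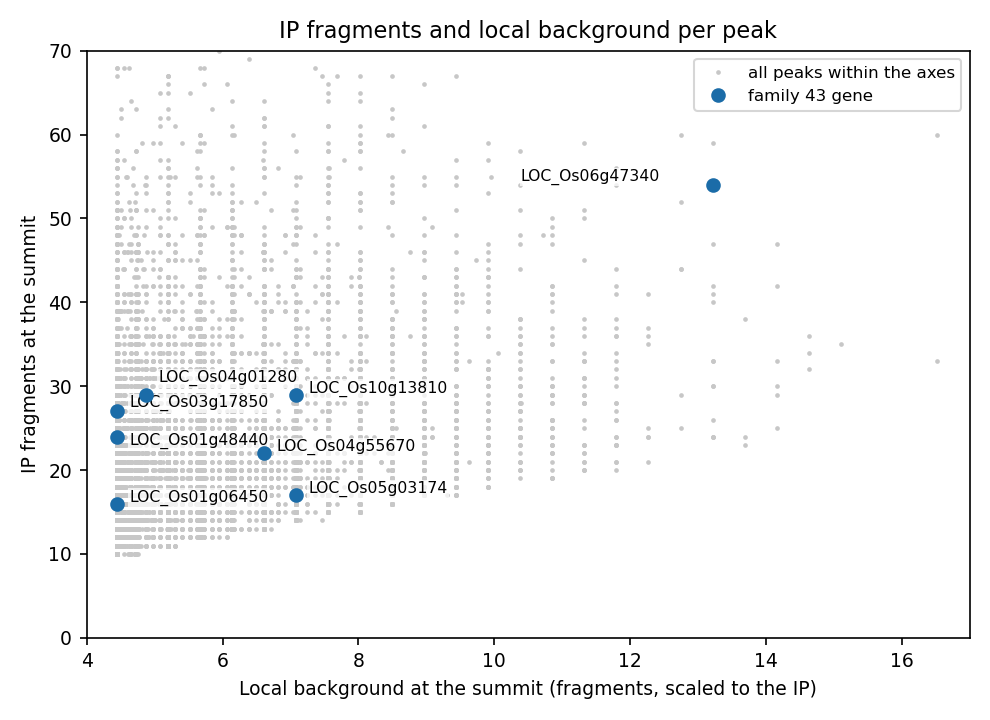
IP fragments at the summit (y axis) against the local background at the summit, scaled to the IP (x axis), both linear. Blue points are the 8 family 43 genes and grey points all other peaks within the axes. LOC_Os06g47340 stands apart at 54 fragments over 13.2, and the other members lie at 16 to 29 fragments over 4.44 to 7.08.

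Background differed among the members by up to 2.98-fold, and their order by IP fragments was not their order by fold. At 3 of the 8, LOC_Os03g17850, LOC_Os01g48440 and LOC_Os01g06450, it was the genome-wide floor of 4.44 fragments, as it was for 25.7% of all genes. The other 5 ran from 4.87 to 13.2, against a median of 5.19 over all peaks. Over the genome-wide background, 6 of the 8 genes reached a fold of 4, where 46% of all genes did. The genes at the floor kept their fold, and LOC_Os06g47340, LOC_Os10g13810 and LOC_Os04g55670 went up to 10.1, 5.52 and 4.23. LOC_Os04g01280 had 5.52 on this scale and LOC_Os05g03174 3.31.

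Most summits lay upstream of the gene they were assigned to. For 7 of the 8 genes the summit was upstream of the annotated start, against 63.2% of all genes. For 3 of the 8 it lay within 250 bp of the start, against 35.8% of all genes, and for 4 of the 8 within 500 bp, against 48.4%. Both shares are close to those of the whole list. The files give the span of each gene but not its exons or untranslated regions, so positions are relative to the gene span. Distances are to the start of the gene itself.

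At LOC_Os04g01280, LOC_Os10g13810 and LOC_Os06g47340 the peak straddled the start, with the summit just upstream of it. The peak of LOC_Os04g01280 ran from 215643 to 216147 (505 bp), with the summit at 215842, 87 bp upstream, and covered the first 219 bp of the gene. The peak of LOC_Os10g13810 ran from 7502781 to 7503643 (863 bp), with the summit at 7503546, 93 bp upstream, and covered the first 673 bp of the gene. The peak of LOC_Os06g47340 ran from 28693898 to 28695007 (1110 bp), with the summit at 28694722, 129 bp upstream, and reached 157 bp into the gene. These summits thus lay within 42 bp of each other when the genes are aligned at their starts. Of all genes, 21.4% had the summit within 250 bp upstream.

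At the remaining upstream genes the peak lay outside the gene. The peak of LOC_Os01g06450 ran from 3038907 to 3039244 (338 bp), with the summit at 3039011, 287 bp upstream. The peak of LOC_Os05g03174 ran from 1277807 to 1278215 (409 bp), with the summit at 1278057, 834 bp upstream. The peak of LOC_Os03g17850, the one of highest fold, ran from 9944746 to 9945198 (453 bp), with the summit at 9944879, 1502 bp upstream. The peak of LOC_Os01g48440 was the widest of the family, from 27762956 to 27764141 (1186 bp), with the summit at 27763868. That is 2135 bp upstream of the start. Genes were joined to peaks by a window of 2000 bp to either side of the start. The summit of this peak lay outside that window, but the centre of the peak lay inside it. Summits beyond 2 kb were found for 7.6% of all genes.

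LOC_Os04g55670 was the exception in position. Its peak, from 33138294 to 33138583, was the narrowest of the family at 290 bp and lay wholly inside the gene. The summit at 33138442 was 1821 bp downstream of the start. Of all genes, 27.1% had the summit inside the gene.

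**Figure D3:**
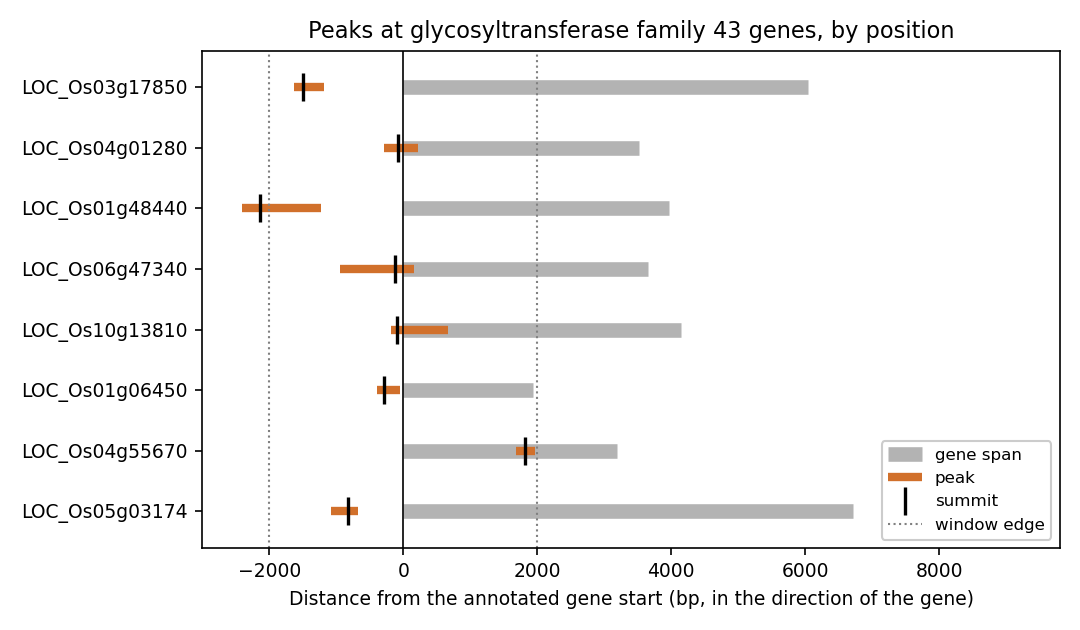
Position of each peak relative to the annotated start of its family 43 gene (x axis, bp, in the direction of the gene), with genes in falling order of fold from the top. Grey bars are gene spans, orange bars peaks and black ticks summits, and dotted lines mark the window of 2000 bp to either side of the start. At 3 genes the summit lies 87 to 129 bp upstream of the start, at 4 it lies 287 to 2135 bp upstream, and at LOC_Os04g55670 it lies 1821 bp downstream.

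Of the 8 peaks, 7 were carried by the family 43 gene alone, against 70.4% of all genes on a peak of their own. The exception was the peak of LOC_Os01g06450, which was also assigned to LOC_Os01g06430 and LOC_Os01g06440, both described only as expressed proteins. Its summit lay inside LOC_Os01g06440 (3037689 to 3039157, plus strand), 1322 bp downstream of the start of that gene, and 251 bp of the peak overlapped it. The same peak was 1722 bp upstream of the start of LOC_Os01g06430. Which of the 3 genes the peak belongs to cannot be told from its position.

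No other listed peak overlapped the window of any member. The list gives no further peaks of the same gene, so another peak there could be listed only under a different gene. Whether a member had more peaks in its window can be told only where the peak numbers settle it, as given below. Listed peaks within 5 kb were found beside 2 of the 8. The peak of LOC_Os06g47350, which encodes a protein of the RRN3 family of RNA polymerase I initiation factors, began 4384 bp past that of LOC_Os06g47340. Its fold was 3.94, from 29 fragments over 6.61, with the summit 49 bp upstream of its own start. Upstream of the peak of LOC_Os04g01280, at a gap of 4710 bp, lay the peak of LOC_Os04g01270, a hypothetical protein gene, with a fold of 6.64 from 37 fragments over 4.72.

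Peak numbers rose along every chromosome, and some numbers beside the members had no entry. There were 14 of them, beside 4 of the 8 genes, and any called peaks that carried them were not analysed here. At LOC_Os03g17850, 4 such numbers fell between 9945198 and 9954605, a stretch that holds the whole gene, and 1 fell on the far side of its peak. At LOC_Os04g55670, 1 number fell between 33138583 and 33144735, a stretch that includes the start of the gene, and 2 fell between 33132788 and 33138294. At LOC_Os01g48440, 3 numbers fell upstream of its peak, between 27764141 and 27776730. At LOC_Os05g03174, 2 fell upstream, between 1262136 and 1277807, and 1 fell between 1278215 and 1426353. At LOC_Os06g47340, LOC_Os04g01280, LOC_Os10g13810 and LOC_Os01g06450 there was none up to the next listed peak on either side. These 4 genes thus had no further numbered peak in their window. The same held for LOC_Os01g48440, whose 3 unlisted numbers lay beyond its summit and so outside the window, with none on the other side. For LOC_Os03g17850, LOC_Os04g55670 and LOC_Os05g03174 it cannot be told from the list.

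Other glycosyltransferase genes and wall polysaccharide genes in the list spanned a similar range of folds, wider at the top. The former were found by that word in the description, whether or not they act on the wall. The 65 other glycosyltransferase genes had a median fold of 3.45, from 1.89 to 8.45, and 25 of them reached a fold of 4, where 27.6% of all genes did. LOC_Os10g40640 (8.45) and LOC_Os03g37010 (7.91, summit 717 bp downstream of the start) were highest. Of the 65 genes, 51 had the summit upstream of the start, against 63.2% of all genes, and 38 within 250 bp of it, against 35.8%. For cellulose synthases and related synthases (20 genes) the median was 3.34, from 2.11 to 5.37, and 4 reached a fold of 4, again against 27.6% of all genes. No difference between these groups and family 43 was tested, since there was 1 IP and members of a family are not replicates.

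Family 8 glycosyltransferases include the enzymes that add glucuronic acid to xylan as well as pectin-related enzymes. The 22 genes described as family 8 or as holding its domain had a median fold of 3.91, and 9 reached a fold of 4, against 27.6% of all genes. The search was widened to the domain after the descriptions were seen. The 4 genes described as family 8 had a median of 3.00, below that of family 43, and 1 reached a fold of 4. The highest of the 22 were LOC_Os10g40640, with a fold of 8.45 from 55 fragments over 5.63 and the summit 237 bp upstream, and LOC_Os03g18890, with a fold of 5.69 and the summit 2774 bp upstream. In this group 16 of 22 summits lay within 250 bp of the start, against 35.8% of all genes. Family 43, with its 3 of 8, was close to the share of all genes and not to that of family 8. The exostosin family includes IRX10 of Arabidopsis. Its 11 genes in the list had a median fold of 3.59, with 3 at a fold of 4 or more, a share close to the 27.6% of all genes. They were led by LOC_Os05g46260, at a fold of 10.02 from 55 fragments over 4.59 with the summit 92 bp downstream of the start, and by LOC_Os02g32110, at a fold of 5.70 and 57 bp upstream. LOC_Os04g32670 had the same fold of 5.70, with its summit 1872 bp upstream.

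Of the remaining groups of the pathway, 6 genes were found by the search for DUF231, trichome birefringence or leaf senescence related proteins, all under the last of these descriptions. Their median fold was 3.73, and LOC_Os01g61460 (6.03) and LOC_Os06g44900 (4.41) were highest. The search for enzymes of UDP-glucuronate and UDP-xylose, the nucleotide sugars of the backbone and its side groups, found 3 genes, all described as UDP-glucuronate 4-epimerases, which make the precursor of pectin sugars. Their median fold was 3.13, with LOC_Os08g41440 (3.55) and LOC_Os09g32670 (3.13) highest. Among cellulose synthase and synthase-like genes, CSLF6 (LOC_Os08g06380), a mixed-linkage glucan synthase gene, had 5.37 and CSLD5 (LOC_Os06g22980) 4.74. Searches for family 61 or DUF563, which in grasses covers the enzymes adding arabinose to xylan, and for DUF579, which covers the xylan methyltransferases, found 0 genes by description. Genes of these kinds may be in the list under other descriptions.

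**Figure D4:**
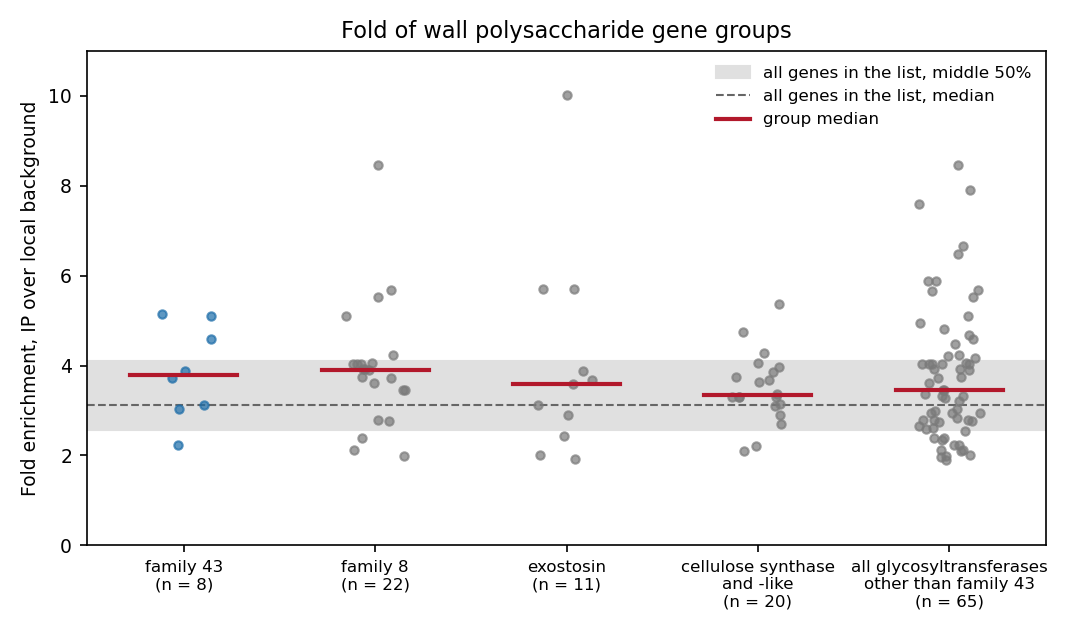
Fold enrichment of the IP over local background (y axis, linear) for the family 43 genes and for other groups of glycosyltransferase or wall polysaccharide genes (x axis). Each point is a gene, and red lines are group medians. Family 8 genes are also among all other glycosyltransferases. The family 43 median of 3.79 lies between those of family 8 (3.91, or 3.00 for the 4 genes described as the family and not by its domain) and exostosin genes (3.59), and none of the 8 exceeds 5.15, where single genes of the other groups reach 8.45 and 10.02.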

How the data were processed

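The samples were 1 anti-FLAG IP library and 1 input library of the same transgenic rice line. MACS2 2.2.7.1, Bowtie2 2.4.2, Picard and SAMtools are named in the submitters' processing notes. No source used here gives the genome build, filters or calling threshold. The authors deposited 1 list of IP peaks joined to genes that had a peak within 2000 bp of their start, upstream or downstream, with 1 peak per gene. The rule that picked this peak is not stated, so it need not be the nearest or the strongest. In it the deposited fold is a linear ratio, IP over local background, taken at the summit, and p and q values are deposited as −log10. The deposited score follows the p and was not used. Peak positions are written counting from 1.

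From each fold, taken as (fragments + 1) / (background + 1), and p, taken as a Poisson upper tail, the whole number of IP fragments and the background were solved (12485 of 12487 peaks, tolerance 0.0001 times the −log10 p plus 0.0002). In data simulated with the same formulas the solving returned 100.0% of 2000 peaks. That checks the solving and not whether the deposited values follow these formulas. Intervals are 95% exact Poisson intervals of the IP fragments at a fixed background. They and the deposited q cover counting error only, since there was 1 IP and 1 input library. Fragments carry no molecular identifiers, so the counts may include copies of a fragment. The weight of 0.472 per input fragment was inferred as the step, within a fixed range, that best fitted the recovered backgrounds. Of the backgrounds used for this, 64.7% were whole multiples of it. Steps outside that range were not tried, so the counts of input fragments depend on the range. Background in input fragments is given where it was a whole multiple of 0.472 within 0.02 fragments. The sources used here give no library totals. The lowest summit among all peaks held 10 fragments and the median 20.

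All members were named, with genes sharing a peak or carrying the nearest listed peak within 5 kb, and the top 2 of each group found by keyword. LOC_Os04g32670, the 2 genes without an entry and the genes of the closing paragraph were added later. The spelling of the family 8 search was widened after the descriptions were seen. Members and lists were chosen with earlier results of these data known. Counts of strength and position are given beside the share over all genes, and no test was made over the members. Sequences are not shown, because no genome of the build was used here. Python 3.11.15, pandas 2.3.3, SciPy 1.17.1 and matplotlib 3.10.9 were used.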

Additional observations from a re-analysis of the deposited data

How the results depend on the processing

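Of 20 values recomputed under other settings, 18 stayed within counting error (medians) or within 1.5 times the main count. The exceptions were both for the number of family 43 genes at or above a fold of 4, which was 3. It became 6 with the median of all genes as threshold, and 6 with the genome-wide in place of the local background. The share of all genes rose as well, from 27.6% to 50.8% and 46%. Several of the 18 could hardly move, so that count says little about stability. All 8 genes passed a q of 0.05 and each had a different peak, so those settings returned the same median fold of 3.79. Leaving each gene out in turn could give only 3.71 or 3.87, the folds of LOC_Os10g13810 and LOC_Os06g47340. The median fold was 3.87 at a q of 0.01 or less and 3.71 for summits in the gene or within 2 kb upstream. With peak centres in place of summits, 6 in place of 7 genes lay upstream, since the centre of the peak of LOC_Os10g13810 was 241 bp downstream of the start. The share of all genes by peak centre was not computed. No paired analysis was possible because there was 1 IP and 1 input. Depth limits the order of the members: with 16 to 54 fragments per summit, no pair had separate intervals. The choice of background moved the folds of LOC_Os06g47340 and LOC_Os10g13810 past their counting intervals. They became 10.1 in place of 3.87 and 5.52 in place of 3.71.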

Other observations

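Genes of related function that the search terms did not cover were also in the list. There were 5 genes described as xylosyltransferases, which transfer xylose to glycans or proteins, with a median fold of 2.55. LOC_Os01g56570 was highest at 4.70, from 37 fragments over 7.08, with the summit 935 bp upstream of its start. LOC_Os04g23580 was lowest at 2.04, from 11 fragments over 4.87, with a −log10 q of 0.777. Xylanase inhibitors are plant proteins that block xylan-degrading enzymes of microbes. The 4 genes described as such had folds from 3.34 to 5.31, the highest at LOC_Os01g71090 with the summit 855 bp upstream, and all had a q of 0.05 or less, as did 90.1% of all genes. Both groups were chosen after their values were seen.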
